A study of Danio rerio with 18 samples.

Results

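In the livers of adult zebrafish, 149 of the 28404 transcript accessions on the array were higher in females than in males of both the AB and the WIK strain, once the vitellogenins and several families that accompany them had been set aside. An accession was taken when, in the deposited log2 table, the lowest of the 3 females exceeded the highest of the 3 males and the female mean was at least 1 log2 unit above the male mean, separately in AB (a condition met by 2.38% of the accessions alone) and in WIK (1.5%). Both conditions together were met by 171 accessions (0.602%), and 22 of these were left out because their symbol began with vtg, esr, rbp, cyp, sec, ssr, pdia, tmed, dnaj or hsp. Of the 149 members, 107 had a symbol and 42 had none and could not be screened by symbol. The 107 carried 104 distinct symbols, since rtn1a was represented by 3 accessions and hmgcra by 2. The members were thus selected on the sex differences of the AB and WIK fish, which are described here with no test. The third strain, Tuebingen (TU), took no part in the choice and was tested.

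The liver of an egg-laying vertebrate makes the yolk precursor vitellogenin under the control of estrogen from the ovary. The protein enters the endoplasmic reticulum (ER), is loaded with lipid, phosphorylated and glycosylated on its way through the Golgi apparatus, and is carried in the blood to the growing oocyte. A female liver therefore needs ribosomes, tRNA synthetases, ER chaperones, lipid enzymes and the kinases of secreted proteins, and males that receive estrogen can be brought to make the same protein.

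The 18 arrays were each hybridised with RNA from the liver of 1 fish, 3 males and 3 females of AB, TU and WIK. All fish were naive, untreated adults, of 12 to 18 months by the labels (the study's methods give a narrower range), from lines obtained as embryos from a stock centre and kept for 2 generations in 1 facility. Sex was assigned at dissection from the sight of eggs or testes. The labels distinguish the 6 groups by strain and sex alone and name no engineered allele. The AB livers were taken in the morning and the TU and WIK livers in the afternoon, so the strain and the hour cannot be told apart where AB is set against the others.

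Between 44.9% and 67.3% of the spots of an array were well above background and 0 spots were saturated. The 16 hepatocyte marker genes were well above background on every array, and their mean log2 intensity lay between 15.01 and 16.79. In bulk liver, fewer cells of a type and less RNA per cell cannot be told apart. The library labelled TU female 3 stood apart from the other females. Each fish was placed on a scale for each accession, with 0 at the mean of the AB and WIK males and 1 at the mean of the AB and WIK females. On this scale the median of the 11 vitellogenin accessions was 0.95 in TU female 1, 0.98 in TU female 2 and 0.05 in TU female 3. Its hepatocyte marker mean was 16.54, against 15.29 and 15.24 in the other TU females and 16.20 to 16.76 in the TU males. The TU results are therefore given with and without this fish.

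The members differed widely in size. On values recomputed from the scanner signals, the difference between the sexes ran from 0.90 to 8.93 log2 units in AB, with a median of 1.93, and from 0.64 to 9.26 in WIK, with a median of 1.84. It was larger in AB at 89 of the 149 members. All 3 female arrays of AB and of WIK were well above background at 147 members, and all 18 arrays of the study at 99. Of 71 members with several probes, 64 had every probe higher in females in both strains. Just inside the threshold of 1 lay slc30a7, riox2 and ddx21, whose smaller deposited differences were 1.00, 1.01 and 1.01. Just outside lay eif5a2 at 1.00, which fell short before rounding, and eef1g and eif2s1b at 0.99. The gap between the lowest female and the highest male was as small as 0.04 at the accession CT659199, 0.08 at ms4a17a.16 and 0.09 at ENSDART00000112803, and was 0.00, -0.01 and -0.06 at mid1ip1l, ENSDART00000111480 and CU458950, which were not taken. The same condition turned to males was met by 153 accessions (0.539%).

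In TU, 2 of the 3 females resembled the AB and WIK females at most members and the third resembled the males. TU female 1 had a median position of 0.72 over the 149 members and lay past the midpoint of 0.5 at 98 of them. TU female 2 had a median of 0.85 and lay past it at 111. TU female 3 had a median of 0.00 and lay past it at 18, close to the 17, 6 and 24 members of TU males 1, 2 and 3, whose medians were -0.02, -0.01 and -0.01. Each AB and WIK female lay past the midpoint at 124 to 147 members. Those fish set the scale and the choice of members, so the lower counts of TU females 1 and 2 are not independent of that choice. When arrays were only scaled to a common median, TU females 1, 2 and 3 lay past it at 79, 86 and 62 members and TU male 3 at 64, so that the separation of TU female 3 from the others was smaller in that scaling.

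**Figure D1:**
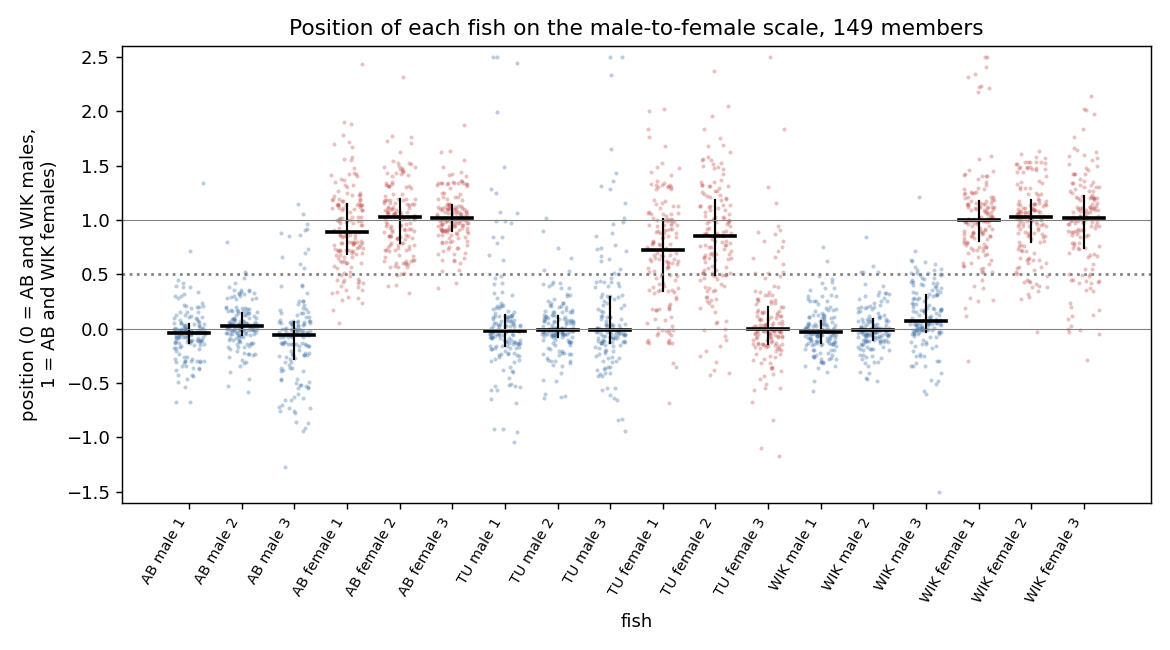
Position of each fish between the AB and WIK male mean (0) and the AB and WIK female mean (1), 1 column per fish. Each point is 1 of the 149 members, the thick line is the median, thin lines are the quartiles, the dotted line is the midpoint of 0.5, and points beyond -1.5 or 2.5 are drawn at those limits. TU female 3 has a median of 0.00, whereas TU females 1 and 2 have medians of 0.72 and 0.85.

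Among the members, 72 (48.3%) showed both TU female 1 and TU female 2 past the midpoint and neither TU female 3 nor any male. The 3 TU females all lay past it with no male in 1 case, the gene iyd. No TU fish of either sex lay past it at 21 members, and exactly 1 of the first 2 females did so at 25. TU female 3 was below both other females at 121 members, within the range of the 3 TU males at 92, above it at 30 and below it at 27. At 109 members (73.2%) TU females 1 and 2 both exceeded the highest TU male, a condition met by 17.6% of all accessions. With TU female 3 included, the females exceeded every male at 21 members (14.1%), against 4.76% of all accessions.

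With 3 females against 3 males, no accession passed the test in TU. The female mean was above the male mean at 135 of the 149 members and the median difference was 0.89 log2 units, against 0.01 over all accessions. In limma, 0 of 149 members had a Benjamini-Hochberg adjusted p of at most 0.05 with a 2-fold difference, and 0 of 28404 accessions did (0%). The smallest adjusted p was 0.574, and an unadjusted p under 0.05 was found at 22 members and 1182 accessions. When the 18 arrays were fitted together in limma, with 1 estimate of the spread, iyd was the single member called (adjusted p = 0.017), beside 0.0282% of all accessions called higher in females. When arrays were only scaled to a common median, the female mean was higher at 104 of the 149 members. The median difference was then 0.47 log2 units, against 0.06 over all accessions, so its size depended on the scaling.

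Without TU female 3, 35 of the 149 members (23.5%) were called higher in the 2 remaining TU females than in the 3 males, against 0.465% of all accessions, and 0 were called lower. The median difference over the members was 1.37 log2 units and in 89 the females were higher by at least 1. TU female 3 was set aside because its vitellogenins were at the male level, which is itself part of the sex difference, so every adjusted p given without this fish is conditional on that choice and describes the 2 females kept. The count of 35 also rested on few fish. It was 0 when TU male 1 was left out as well. It was 2 without TU male 3, beside 0.0211% of all accessions called higher in females. It was 50 without TU male 2, beside 1.1%, where 4 more were called lower. Leaving out TU female 1 or TU female 2 as well left a single female, so no count is given. The median difference of the members was then 1.55 or 1.24 log2 units. The deposited table gave 8, beside 0.151% of all accessions called higher in females. The scanner's processed signal scaled to the 75th percentile gave 86, beside 23.7%. Median scaling called 37 members, 35 of them higher in females, beside 0.356% of all accessions. It called 1998 accessions in total, of which 101 were higher in females. The median difference of the members was 0.64 in that scaling, against 0.10 over all accessions, and 100 of the 149 were higher in females.

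The aspartic protease nothepsin and the Golgi kinases of secreted proteins had median differences of 4.64 log2 units in AB and, leaving TU female 3 aside, 4.10 in TU, the highest of the role classes in both. In WIK their median was 3.66, below the 3.82 of the transcription regulators. The members were chosen on the AB and WIK differences and the class of 4 was set with earlier results known, so these ranks are a description. nots, which encodes nothepsin, a protease known from the liver of female fish, had log2 intensities of 6.34, 7.84 and 6.53 in AB males and 16.16, 15.51 and 15.84 in AB females. In WIK they were 6.43, 6.60 and 8.90 in males and 17.23, 16.29 and 16.19 in females. The TU males had 6.25, 8.20 and 6.30, and the TU females 15.10, 15.17 and 6.84. TU females 1 and 2 were thus far above all males, slightly below the AB and WIK females, and TU female 3 lay within the range of the TU males. Without that fish the TU difference was 8.22 ± 0.68 log2 units (SE; limma adjusted p = 0.0363).

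fam20cl is a relative of FAM20C, the kinase that phosphorylates secreted proteins in the Golgi of mammals. Its intensities were 5.88, 6.01 and 6.16 in AB males and 11.05, 11.54 and 10.20 in AB females, and 5.97, 5.96 and 6.19 in WIK males and 10.78, 10.12 and 10.52 in WIK females. In TU the males had 5.91, 6.06 and 6.05 and the females 10.95, 11.34 and 6.07. The female values of the first 2 TU fish overlapped those of AB, and TU female 3 lay just above the highest TU male. The difference without that fish was 5.14 ± 0.14 (limma adjusted p = 0.0076). These values are means over 2 probes, whose sex differences were 3.48 and 6.34 in AB and 1.96 and 6.90 in WIK. fam20ca, the second relative of the kinase, was not well above background on any male array of the study. A fold is then a bound, set against the higher of the measured value and the lowest signal well above background on each male array. The bound was at least 20.5-fold in AB and at least 7.43-fold in WIK. TU without TU female 3 had a bound of at least 8.26-fold (limma adjusted p = 0.0462). The TU females had 9.59, 8.61 and 6.26 and the TU males 6.03 to 6.11. fam20a, whose mammalian counterpart is a pseudokinase that activates FAM20C, had 9.76, 9.97 and 8.18 in TU females and 8.03, 8.54 and 8.32 in TU males, a difference of 1.57 without TU female 3 that missed the threshold (limma adjusted p = 0.0563). All 4 of these genes showed TU females 1 and 2 alone past the midpoint.

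**Figure D2:**
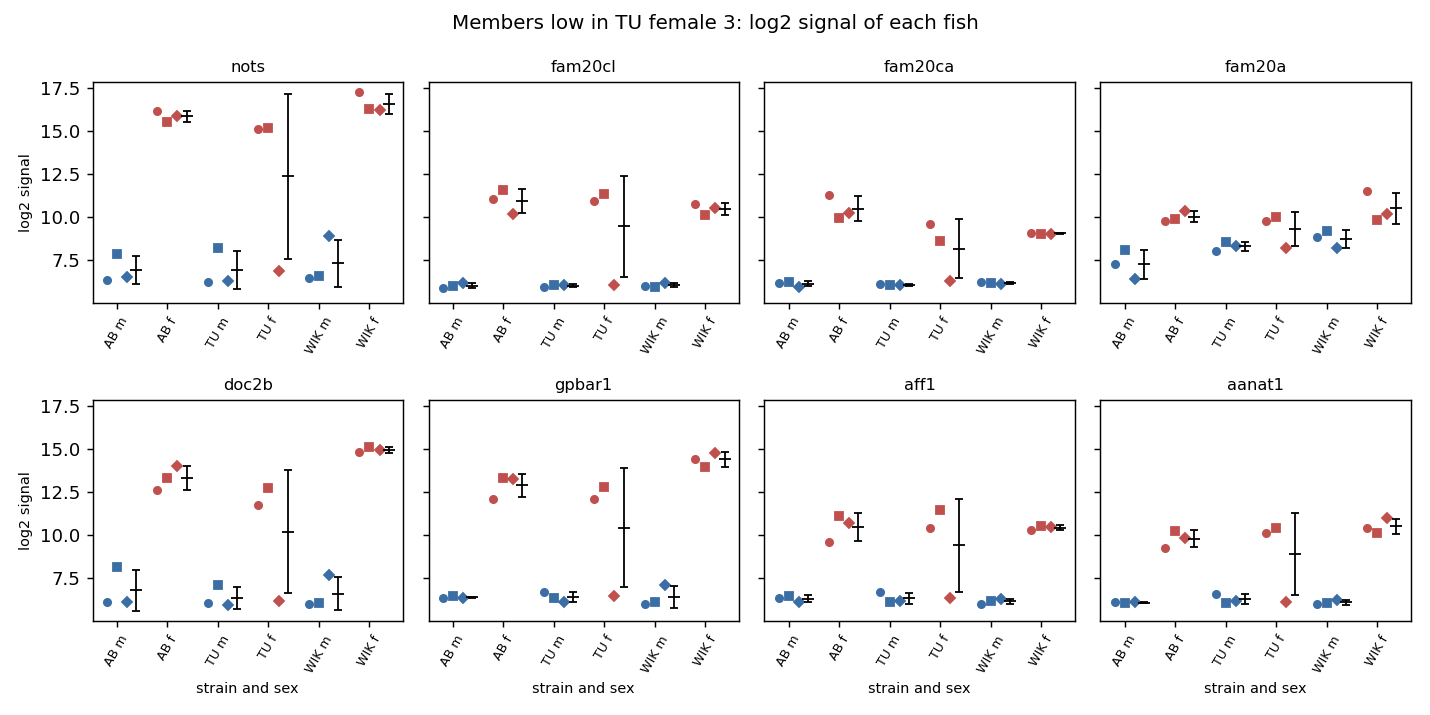
Log2 intensity per fish for 8 members with large sex differences (nots, fam20cl, fam20ca, fam20a, doc2b, gpbar1, aff1 and aanat1), with strain and sex on the horizontal axis. Males are blue and females red, circle, square and diamond mark replicates 1, 2 and 3, and black dash and bar are the mean ± SD (n = 3). TU female 3 (diamond) lies at or close to the level of the males in these panels, for example at 6.84 for nots and, just above every male, at 6.26 for fam20ca.

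The 5 transcription regulators among the members were aff1, crebbpa, supt3h, srfa, a relative of serum response factor, and med30, a subunit of the Mediator complex. aff1, a scaffold of the super elongation complex, had 6.72, 6.14 and 6.15 in TU males and 10.42, 11.46 and 6.34 in TU females. Its AB and WIK females lay between 9.58 and 11.11 and its AB and WIK males between 5.99 and 6.48. Without TU female 3 the TU difference was 4.60 ± 0.38 (limma adjusted p = 0.0363). crebbpa, a histone acetyltransferase, had 6.24, 7.0 and 6.22 in TU males and 9.87, 10.20 and 6.27 in TU females, and its difference was 3.55 ± 0.29 (limma adjusted p = 0.0363). supt3h, a subunit of the SAGA coactivator complex, differed by 2.99 and was not called (limma adjusted p = 0.124). These 3 genes had TU female 3 at or below the highest male. The probes of 2 of these genes disagreed. The sex differences of the 2 crebbpa probes were 0.21 and 7.37 in AB and 0.24 and 8.52 in WIK, and those of the 2 supt3h probes were 0.26 and 7.09 in AB and -0.16 and 7.80 in WIK, so their values are means over a probe with and a probe almost without a difference.

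Among named members with other roles, gpbar1, the membrane receptor for bile acids, had 6.35, 6.44 and 6.35 in AB males and 12.11, 13.33 and 13.23 in AB females, and 6.02, 6.09 and 7.12 in WIK males and 14.42, 13.95 and 14.79 in WIK females. The TU males had 6.69, 6.37 and 6.10 and the TU females 12.08, 12.77 and 6.46, so that TU female 3 was again inside the male range. The difference without it was 6.04 ± 0.28 (limma adjusted p = 0.0194). doc2b, a calcium sensor of vesicle exocytosis, had 6.08, 7.10 and 5.94 in TU males and 11.73, 12.73 and 6.15 in TU females, and differed by 5.85 ± 0.49 without the third female (limma adjusted p = 0.0363). In WIK its females reached 14.80, 15.14 and 14.92. palm2akap2, which encodes an anchor of protein kinase A, and mslna, a mesothelin relative, were called too, with differences of 4.11 and 3.29. The class of 32 members with other or no stated roles had 8 calls, beside 23.5% of all members and 0.465% of all accessions.

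Genes of translation, RNA processing and cytosolic folding were high in both TU females that resembled the other strains. Without TU female 3, 7 of 12 such members were called, beside 23.5% of all members and 0.465% of all accessions. Their median difference was 1.86, and TU females 1 and 2 alone were past the midpoint at 9. polr1f, a subunit of RNA polymerase I, had 6.94, 7.36 and 6.63 in TU males and 10.65, 11.24 and 6.45 in TU females. ddx21, a nucleolar RNA helicase, had 10.72, 11.51 and 10.91 in TU males and 14.49, 14.33 and 10.80 in TU females. Their differences were 3.97 ± 0.29 (limma adjusted p = 0.0322) and 3.36 (limma adjusted p = 0.0342), and at ddx21 the difference in AB was 1.98 and in WIK 1.15. The chaperonin subunit cct2 (2.24), the elongation factor subunit eef1db (2.46), the ribosomal oxygenase riox2 (2.27), snd1 (1.72) and the alanyl-tRNA synthetase aars1 (1.67) were the others called. The isoleucyl- and seryl-tRNA synthetases iars1 and sars1 differed by 1.75 and 1.52 and were not called, and pelo, a ribosome rescue factor, had -0.28, with TU female 3 the highest of the 6 TU fish at 8.82.

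Among 17 members of small-molecule metabolism and transport, 4 were called without TU female 3, beside 23.5% of all members and 0.465% of all accessions. iyd, the deiodinase that recovers iodide from iodotyrosines, was the member at which all 3 TU females were high. It had 6.17, 6.28 and 6.21 in TU males and 9.72, 9.52 and 8.72 in TU females. The AB and WIK males lay between 6.0 and 6.71 and the females between 9.24 and 10.75, so TU female 3 was the lowest female of the 9 but above every male. The TU difference with all fish was 3.10 ± 0.27 (limma adjusted p = 0.574 over all accessions), and 3.40 ± 0.09 without TU female 3 (limma adjusted p = 0.0076). aanat1, an N-acetyltransferase of the melatonin pathway, had 6.59, 6.06 and 6.19 in TU males and 10.14, 10.42 and 6.14 in TU females, and differed by 4.00 ± 0.20 (limma adjusted p = 0.0194). The amylase gene amy2al1 and the farnesyltransferase subunit fntb were the others called, with 2.89 and 2.13. The iron transporter slc11a2 (1.70) and the purine synthesis gene paics (2.16) were not.

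The neighbouring genes eevs and zgc:113054, whose products make the ultraviolet-absorbing compound gadusol, were members together. eevs was not well above background on any male array, whereas its females had 12.63, 11.46 and 10.83 in AB, 9.68, 7.72 and 9.08 in WIK and 8.50, 6.75 and 5.87 in TU. That amounted to at least 49.0-fold in AB and at least 7.25-fold in WIK. For TU females 1 and 2 it was at least 3.12-fold (limma adjusted p = 0.288). zgc:113054 had 9.64, 8.94 and 8.75 in AB females, 8.74, 7.81 and 8.71 in WIK females, and 8.04, 7.35 and 6.06 in TU females, against 5.95 to 6.57 in the TU males. Both genes were lowest among all females in TU female 3.

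Of the 23 ER and secretory members, 1 was called in TU without TU female 3, beside 23.5% of all members and 0.465% of all accessions. That 1 was rrbp1a, the ribosome-binding protein of the ER membrane, at 2.11 (limma adjusted p = 0.0194). The median differences of the class were 1.94 in AB and 1.37 in WIK, and 0.43 in TU and 0.74 without TU female 3. The members were chosen on AB and WIK, so the larger medians there are not independent of that choice. TU females 1 and 2 alone were past the midpoint at 8 of the 23, and no TU fish was at 7, mcfd2, lmf2b, cnpy1, lrrc59, ddrgk1, prdx4 and krtcap2. WIK females 1, 2 and 3 were past it at 20, 18 and 20 of the 23. The midpoint averages AB and WIK, and at lmf2b and lrrc59 the AB females were far above the others. The WIK females there lay near the TU females, so these genes do not set TU apart from WIK. The 3 accessions of rtn1a, a reticulon that shapes the ER, differed by 5.62, 5.33 and 3.87 without TU female 3 and were not called (limma adjusted p = 0.0652, 0.0645 and 0.0689). At the first of them the TU males had 8.60, 8.58 and 10.60 and the females 14.97, 14.79 and 9.85. The 6 probes of the third disagreed, with sex differences from -0.15 to 6.59 in AB and -0.06 to 5.40 in WIK. xbp1, the transcription factor of the unfolded protein response, had 9.38, 10.72 and 9.29 in TU males and 12.33, 11.14 and 9.57 in TU females, without a call.

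Several ER members showed no excess of females in TU. At kdelr2b, a receptor that returns ER proteins from the Golgi, the TU males had 10.89, 10.14 and 11.40 and the females 10.78, 10.75 and 11.16. At slc39a7, a zinc transporter of the ER, the males had 9.43, 9.63 and 10.18 and the females 8.64, 8.52 and 10.50. At fkbp2, a prolyl isomerase of the ER, they were 10.16, 10.27 and 10.74 against 10.12, 10.07 and 10.98. The sexes overlapped in all 3 cases and TU female 3 was the highest or, at kdelr2b, the highest female. It exceeded both other TU females and the midpoint at 11 members, which were picked after their values were seen. Their mean was 10.28 in TU female 3, 8.93 and 9.22 in the other TU females, and 9.92, 8.95 and 10.36 in the TU males. They included ckmt1, rh50, bcap31 and pelo. In the same fish the mean of the erythrocyte markers was 11.39, against 8.01 and 7.87 in the other TU females and 8.35 to 9.24 in the TU males, while the mean of 15 exocrine pancreas markers was 13.83 in TU female 3 and 15.19 in TU male 3, against 10.85 to 12.52 in the other TU fish. The part of blood or pancreas in these values was not tested.

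Among the lipid and sterol genes, hmgcra and acsl5 departed from the pattern of AB and WIK. hmgcra encodes the rate-limiting enzyme of sterol synthesis. Its first accession had 7.27, 6.86 and 6.14 in AB males and 10.85, 10.14 and 10.84 in AB females, and 6.05, 6.17 and 8.12 in WIK males and 11.86, 11.56 and 11.70 in WIK females. In TU the males had 7.24, 7.08 and 8.84 and the females 6.22, 6.08 and 6.10. No TU female array was well above background there, and the TU males were at least 3.01-fold higher. The second accession had 7.60, 7.58 and 8.92 in TU males and 6.37, 6.0 and 6.30 in TU females. These were the only 2 members (1.3%) at which every TU male exceeded every TU female, an arrangement found at 3.7% of all accessions. Neither accession passed the test (limma adjusted p = 0.913 for both), and the difference at the second was -1.81 ± 0.40. TU female 3 did not stand apart from the other females at this gene.

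acsl5, which activates long-chain fatty acids as acyl-CoA, had 6.41, 6.02 and 6.0 in AB males and 9.91, 10.61 and 9.72 in AB females, and 6.09, 6.13 and 5.81 in WIK males and 9.46, 10.00 and 9.66 in WIK females. The TU females had 9.72, 9.18 and 8.94, close to those, but the TU males had 11.75, 5.93 and 11.52. The first and the third TU male thus exceeded every female of the study and the second lay with the AB and WIK males. The choline kinase gene chka was the only called member of the 14 lipid genes without TU female 3, at 2.28 (limma adjusted p = 0.0343). The share called was 23.5% of all members and 0.465% of all accessions. The class had a median of 0.83 there, and 2.42 in AB and 2.12 in WIK, the strains on which the members were chosen.

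**Figure D3:**
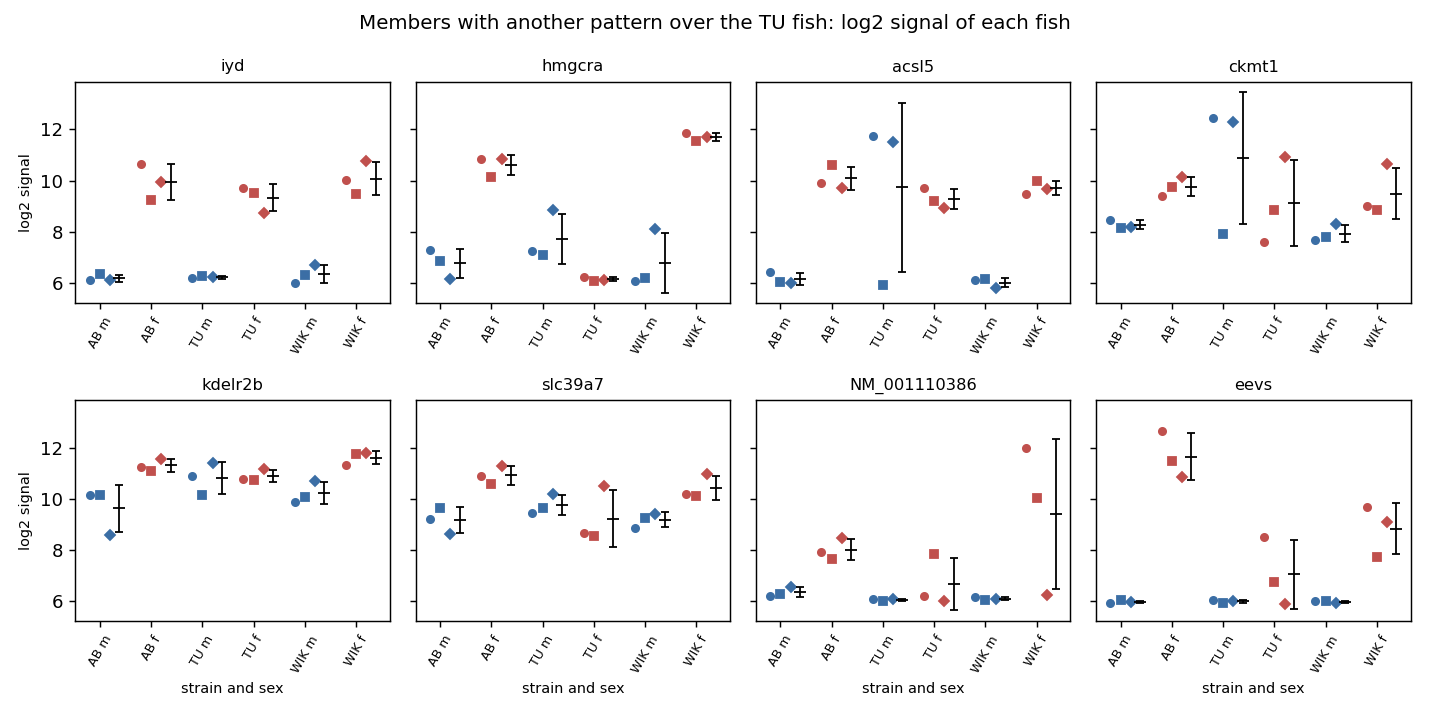
Log2 intensity per fish for 8 members whose TU fish depart from the common pattern (iyd, hmgcra, acsl5, ckmt1, kdelr2b, slc39a7, NM_001110386 and eevs), by strain and sex. Males are blue and females red, circle, square and diamond mark replicates 1, 2 and 3, and dash and bar are the mean ± SD (n = 3). At acsl5 TU males 1 and 3 reach 11.75 and 11.52, and at hmgcra the 3 TU females lie between 6.08 and 6.22.

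The split of the TU males recurred at 13 members, at which TU males 1 and 3 were past the midpoint and TU male 2 was not. They included acsl5, acsl4a, alas1, ckmt1, rarres3, kdelr2b, zgc:194887 and rh50. Their mean was 10.65, 7.68 and 10.43 in TU males 1, 2 and 3 and 7.66 to 7.95 in the AB and WIK males. At ckmt1, a mitochondrial creatine kinase, the TU males had 12.43, 7.92 and 12.30 and the TU females 7.61, 8.85 and 10.91. At alas1, the first enzyme of heme synthesis, the TU males had 15.84, 12.52 and 15.62 and the TU females 13.59, 12.93 and 13.31. The mean of 13 intestinal marker genes was 12.35, 7.34 and 11.96 in the same males, and 7.41, 9.59 and 8.13 in the TU females. The accession ENSDART00000144084, which has no symbol, showed the widest split, with 14.39, 6.24 and 12.77 in the TU males and 6.91, 10.64 and 6.35 in the TU females. The part of intestinal tissue in these values was not tested. The 13 members were picked after their values were seen.

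The 42 members with no symbol had median differences of 1.64 (AB), 1.94 (WIK) and, once TU female 3 was set aside, 1.21 (TU). There 9 were called, beside 23.5% of all members and 0.465% of all accessions. At TC438110, an array transcript with the largest such difference in TU, the males had 7.27, 6.95 and 6.48 and the females 10.28, 10.30 and 6.58 (3.39; limma adjusted p = 0.0322). At TC398927 they had 6.81, 6.32 and 6.23 against 9.50, 9.36 and 6.16 (2.97; limma adjusted p = 0.0302). TU female 3 lay with the males at both, as it did at most of the named members, and TU females 1 and 2 alone were past the midpoint at 19 of the 42.

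A set of 8 members, 6 of them without a symbol, was high in the first and second WIK female and near the males in the third. The group, picked after its values were seen, comprised si:ch211-226h8.14, si:ch211-154a22.8, NM_001110386, NM_001110388, NM_001110119, NM_001105134, ENSDART00000143114 and A_15_P138786. The pick asked for WIK female 1 at least 3 log2 units above WIK female 3. It also asked for WIK female 3 less than 1 above the highest WIK male, so the order of these fish was fixed by the pick. Its mean was 12.00, 10.05 and 6.36 in WIK females 1, 2 and 3, 7.89, 7.76 and 8.55 in AB females, and 6.15, 7.81 and 6.01 in TU females. All males lay between 6.05 and 6.70. Of 25 ovary marker genes on the array, 17 were measured, that is, well above background on at least 3 arrays (zp2.5, for example, on 4). Their mean was 9.62, 7.65 and 6.13 in the WIK females and 6.08, 7.19 and 6.05 in the TU females. It was 6.10 to 6.20 in the AB females and 6.03 to 6.16 in the males. Since the pick used WIK females 1 and 3, no conclusion is drawn from a shared order of the WIK fish. The part of ovarian tissue in the WIK and TU values was not tested.

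**Figure D4:**
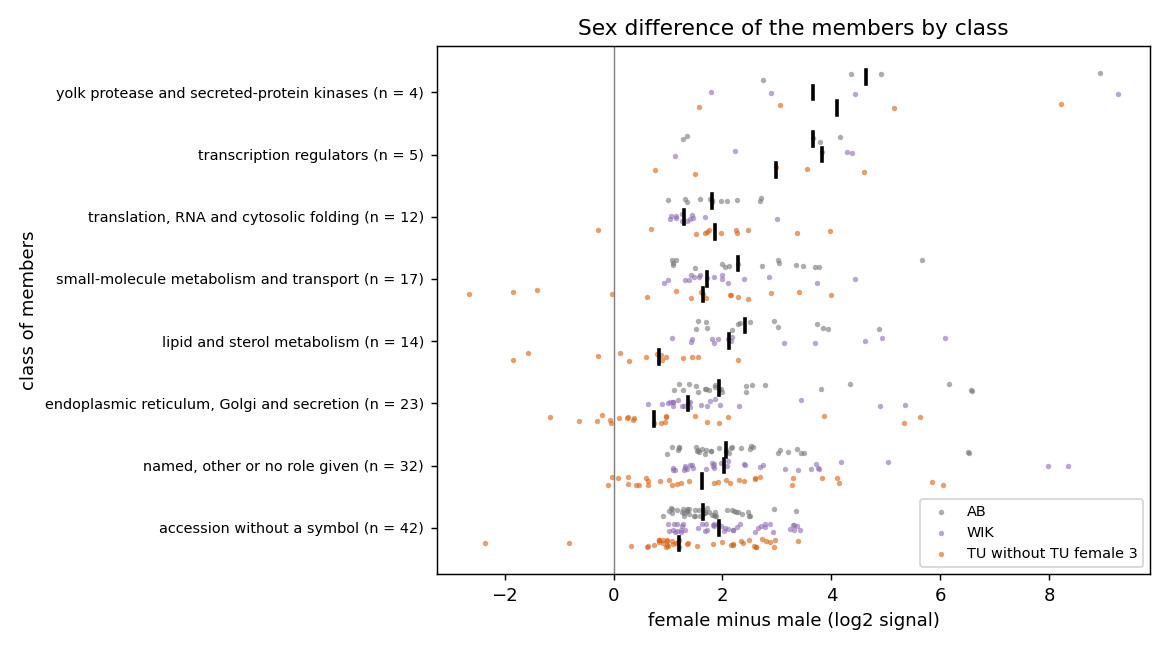
Female mean minus male mean, in log2 units, for every member by role class, in AB (grey), WIK (purple) and TU without TU female 3 (orange). Each point is 1 member and the black bar is the median. In TU it is highest (4.10) for the class labelled yolk protease and secreted-protein kinases and lowest for the ER, Golgi and secretion class (0.74). The former holds nots, fam20a, fam20ca and fam20cl, and its label is a name only, since no action on yolk was measured.

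The strains were then compared within each sex. Among females, 25 of 149 members (16.8%) differed between strains in limma's F test, against 4.16% of all accessions. For pairs of strains, 21 members were higher in AB females than in TU females and 0 lower, whereas over all accessions 497 were higher and 376 lower. Between TU and WIK, 0 were higher in TU and 8 in WIK, beside 113 and 113 of all accessions. Between AB and WIK, 6 were higher in AB and 5 in WIK, beside 526 and 341 of all accessions. The count fell to 14 under median scaling, beside 1.12% of all accessions, and to 14 under 75th percentile scaling, beside 4.57%. It was 15 without AB female 1 (2.33%) or AB female 2 (2.09%), 16 without TU female 1 (3.11%) and 45 without TU female 3 (6.18%). Where accessions had to be well above background on at least 3 female arrays, 30 members were called, beside 8.65% of those tested. The choice of members asked for high AB and WIK females and set no condition on TU, so neither the count, its excess over all accessions, nor the direction of the contrasts with TU is independent of that choice, and they are given as a description.

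hmgcra led these comparisons. AB females were at least 22.2-fold and WIK females at least 47.6-fold above TU females at its first accession (limma F test adjusted p = 5.59e-05), and the second accession had an adjusted p of 0.000263. mid1ip1b, a regulator of fatty acid synthesis, had 12.83, 12.12 and 11.88 in AB females, 8.74, 7.75 and 8.09 in TU females and 9.28, 8.90 and 9.18 in WIK females (limma adjusted p = 0.00129). AB females did not overlap the others there. lmf2b, a lipase maturation factor, had 12.13, 11.68 and 11.73 in AB females, 8.67, 7.54 and 8.52 in TU and 8.36, 9.18 and 8.81 in WIK (limma adjusted p = 0.00224). lrrc59, an ER membrane protein, had 13.16, 12.98 and 12.28, then 10.07, 9.77 and 8.25, then 8.85, 9.28 and 8.86 (limma adjusted p = 0.00637). egln3, a prolyl hydroxylase of the hypoxia response, had 11.80, 12.03 and 10.48, then 8.19, 7.92 and 7.53, then 9.19, 7.96 and 8.24 (limma adjusted p = 0.00885). In all 4 genes AB females were the highest, and no difference between TU and WIK females passed the test. alas1 was highest in AB females too, with 16.92, 16.19 and 16.12 (limma adjusted p = 0.00169).

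Other members were highest in WIK. rarres3l had 12.43, 12.17 and 13.01 in WIK females, 10.71, 10.72 and 11.45 in AB females and 9.53, 9.84 and 8.85 in TU females (limma adjusted p = 0.00531), and 6.28, 6.42 and 6.68 in WIK males. usp47, a deubiquitinating enzyme, had 10.09, 11.68 and 11.99 in WIK females, 7.30, 8.71 and 9.44 in AB and 6.60, 7.76 and 6.10 in TU (limma adjusted p = 0.024). The WIK females of both genes lay above all other females.

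Among males, 10 of 149 members (6.71%) differed between strains, against 3.32% of all accessions. fads2, the desaturase that starts the synthesis of long polyunsaturated fatty acids, had 8.41, 8.86 and 8.51 in AB males, 12.19, 11.86 and 13.11 in TU males and 12.71, 12.58 and 12.75 in WIK males (limma adjusted p = 0.00107). AB males were thus lower by 3.79 and 4.08 log2 units than TU and WIK males. In females the gene had 13.32, 13.47 and 13.63 in AB, 13.14, 13.21 and 12.62 in TU and 14.82, 14.20 and 14.42 in WIK (limma adjusted p = 0.0121). fkbp11, an ER prolyl isomerase, had 8.24, 8.31 and 8.73 in AB males against 11.34, 10.91 and 11.76 in TU and 10.93, 11.14 and 11.61 in WIK males (limma adjusted p = 0.00236). Its sex difference was 6.56 in AB, 2.31 in WIK and 1.22 in TU. Between TU, WIK and AB males the mean of the 15 exocrine pancreas markers moved too, with 8.20, 8.76 and 8.37 in AB, 12.52, 10.85 and 15.19 in TU and 12.62, 12.68 and 16.50 in WIK males, and its part in the fkbp11 values was not tested. The choice of members asked for low AB and WIK males and left TU free, so the male count is a description as well. It was 23 (15.4%) without TU male 2, beside 6.27% of all accessions, and 3 (2.01%) under median scaling, beside 1.17%. Where accessions had to be well above background on at least 3 male arrays, it was 12 of 138 (8.7%), beside 6.14% of those tested. With no fold cutoff it was 11 (7.38%), near the 6.44% of all accessions. It fell to 2 (1.34%), below the share of all accessions, without WIK male 1 (1.56%), without WIK male 2 (1.37%) and with the scan day as a block (1.63%).

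**Figure D5:**
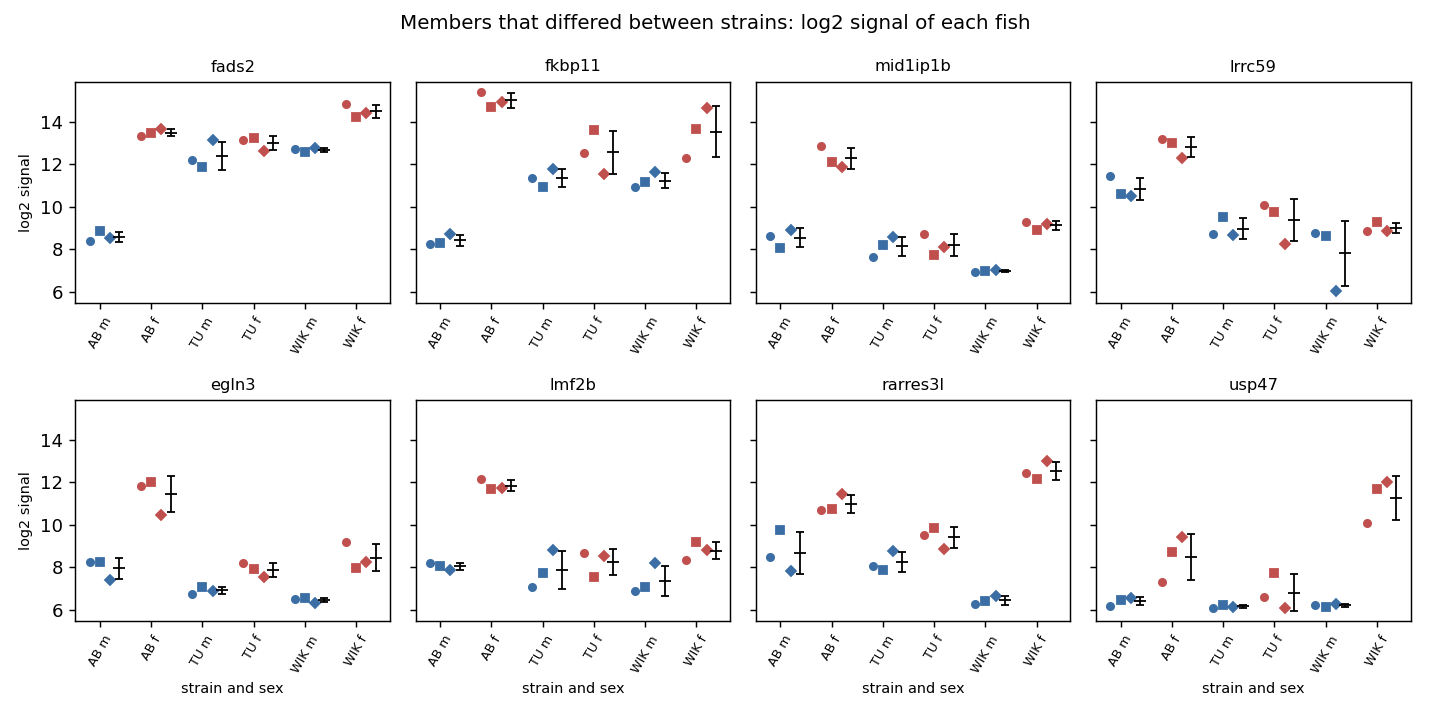
Log2 intensity per fish for 8 members that differ between strains (fads2, fkbp11, mid1ip1b, lrrc59, egln3, lmf2b, rarres3l and usp47). Males are blue and females red, circle, square and diamond mark replicates 1, 2 and 3, and dash and bar are the mean ± SD (n = 3). At fads2 the AB males lie between 8.41 and 8.86 and all TU and WIK males at 11.86 or above.

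The wider pathways of these genes were described from lists of which the members are a part. In the ribosome biogenesis list, 41 genes were measured, 2 of them members, and all 41 were higher in TU females 1 and 2 than in TU males, as were 14919 of the 28404 accessions. Their median was 1.18, and only the 2 members, polr1f and ddx21, were called, beside 0.465% of all accessions. The AB median was 1.16 and the WIK median 0.26, beside 0.00 and -0.01 over all accessions. The 57 measured secretory pathway genes had medians of 0.94 (AB), 0.24 (WIK) and -0.21 (TU females 1 and 2 against the males), with 0 calls there at an adjusted p of at most 0.05 in limma. They included no gene with the left-out prefixes sec, ssr or tmed, so these medians do not describe the whole pathway. The 27 cholesterol synthesis genes had medians of 0.24, 0.01 and -0.74, and 3 of them were higher in those TU females than in the males, with 0 calls. Of 17 aminoacyl-tRNA synthetases 1 was called higher, of 53 fatty acid and glycerolipid genes 1, and of 20 genes listed as Golgi kinases and proteases 3, each of these a member. In AB, WIK and those TU females the synthetases had medians of 1.09, 0.17 and 0.41, and the fatty acid and glycerolipid genes 0.09, 0.08 and -0.06. The list of Golgi kinases and proteases had -0.01, -0.07 and -0.22, and 8 of its 20 genes were higher in those TU females. Besides kinases and nots it held many cathepsins, most of them not aspartic proteases, such as ctsba and ctsla. The large differences of nots and the FAM20 relatives were thus not shared by that mixed list as a whole. Its medians do not describe the Golgi kinases or the aspartic proteases alone. None of these lists had a call toward males. The 19 proliferation genes, with a median of -0.68, held 0 members and 0 calls.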

How the data were processed

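Liver RNA was labelled with Cy3 and hybridised to Agilent 4x44K arrays, 1 fish per array. The authors deposited scanner files (FeatureExtraction 11.0.1.1) with spot and background intensities, and a log2 table that, per the labels, was processed in limma; its normalization is not given in the sources used here. The log2 table served to choose the members and as an alternative. At the 9834 accessions with several probes, its rows matched the mean of the probes (r = 0.9935 to 0.9981 per array). The match to the single probe named in the row was weaker (r = 0.8696 to 0.9187). No per-sample column lacked a sample (0).

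Median intensities of the deposited scanner files were background corrected (normexp, offset 50) and quantile normalized over 18 arrays in limma 3.58.1 (R 4.3.3). Control spots and spots flagged as outliers were then left out. The other spots were averaged per probe, and the probes per accession. The tests were run in limma, with Benjamini-Hochberg adjustment over all 28404 accessions. Accessions were called at an adjusted p of 0.05 or less with a difference of 2-fold or more. The TU fit used the TU arrays, and strains were compared in 9 females and 9 males separately. The fit was checked on simulated data. For TU, the simulation shifted all females together and capped the spread of each accession. It therefore did not cover a female that lay with the males. Figures were drawn with matplotlib 3.10.9. The number of arrays limits the precision.

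Symbols came from a RefSeq table (13518 accessions) or, by probe, from the study's lists (223), and 14663 accessions stayed unnamed. The authors' own fold changes and p-values were not used. Named members were the 20 with the largest smaller difference, up to 4 per pathway list, those at the thresholds, the 5 at each extreme of the TU difference and of TU female 3, and the 3 with the smallest F test p in each sex; others were named after their values were seen. The members, role classes and gene lists were chosen with earlier results of these data known. Alternatives were the 75th percentile of the processed signal, median scaling, the deposited table, the brightest probe, a 4-fold cutoff, slide, scan day and replicate blocks, 1 fit of all arrays, and each fish left out. Same-numbered fish of a strain shared a slide.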

Additional observations from a re-analysis of the deposited data

Results flagged for a closer look

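At 2 accessions, both of hmgcra, every fish of a strain ran against the others. In AB and in WIK all females exceeded all males, and in TU all males exceeded all females, by a female minus male difference of -1.59 log2 units at the accession NM_001126459 and -1.81 at NM_001079977. The difference between the strains was not tested. The 3 TU females, TU female 3 among them, had 6.22, 6.08 and 6.10 at the former, where none was well above background, so that the former difference is set against a group at background. The sign held under every alternative run, with values from -4.41 to -1.03 and from -4.19 to -1.37.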

How the results depend on the processing

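The count of members called between the TU sexes was 0. It was 1 with the processed signal at the 75th percentile, beside 0.00704% of all accessions called higher in females. It was also 1 in 1 fit of 18 arrays, beside 0.0282%. It ranged from 0 to 35 when each fish was left out, 35 being the value without TU female 3 (beside 0.465%). In settings chosen after seeing the data, that count of 35 became 88 with the processed signal. Of these 86 were higher in females, beside 23.7% of all accessions. It became 8 in the deposited table (beside 0.151%) and 71 in 1 fit of 17 arrays (beside 1.44%). When a TU male was left out as well, it ranged from 0 to 54, of which 50 were higher in females (beside 1.1%). Among females the 25 members that differed between strains became 14 with the processed signal (beside 4.57% of all accessions) and 14 under median scaling (1.12%). They became 13 at the 4-fold cutoff (1.08%) and 41 in 1 fit of 18 arrays (5.33%). With a fish left out they ranged from 15 (2.33% without AB female 1, 2.09% without AB female 2) to 45 (6.18%). A filter on dim accessions, its background share added after seeing the data, gave 30 members beside 8.65% of the accessions tested. Among males the 10 became 3 under median scaling (beside 1.17%), 5 in the deposited table (3.37%) and 4 at the 4-fold cutoff (0.989%). They became 2 with the scan day as a block (1.63%). With a fish left out they ranged from 2 (1.56% without WIK male 1, 1.37% without WIK male 2) to 23 (6.27%). Median scaling put TU males 1, 2 and 3 and TU female 3 past the midpoint at 30, 23, 64 and 62 members. A rule asking for a difference of at least 2 left 40 members. Apart from the settings with fewer fish or a stricter cutoff, the cause was not tested.

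With the replicate block the members called were 0 in TU (beside 0% of all accessions), 24 among females (4.64%) and 10 among males (2.52%). A random block for slide gave 27 among females (4.5%) and 10 among males (3.43%). In TU the block for slide is the same fit as the replicate block. The deviations of same-numbered TU fish correlated at 0.051, -0.098 and 0.322 over accessions, so the numbers were not taken to pair them; the fish that correlated best with their own number were 2 of 6 in AB, 2 of 6 in TU and 6 of 6 in WIK.

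Of 701 alternatives for the TU difference of the 54 named members, 26 changed its sign, at 13 members. Under median scaling the difference was -0.52 at mid1ip1b, -0.42 at mcfd2, -0.65 at zgc:194887, -0.78 at kdelr2b, -0.04 at zgc:110286, -0.42 at lrrc59, -0.63 at selenof, -0.22 at gosr2 and -0.04 at slc30a7. It was 1.17 at acsl5 with the processed signal, -0.06 at zgc:194887 in the deposited table and 0.58 at ms4a17a.16 with the brightest probe. With a fish left out it ranged from -2.35 to 0.56 at acsl5, -1.71 to 0.28 at acsl4a, -0.22 to 0.28 at mid1ip1b, -0.07 to 0.54 at mcfd2, -0.35 to 0.30 at zgc:194887, -0.25 to 0.38 at kdelr2b, -0.24 to 0.61 at zgc:110286, -0.63 to 0.07 at bcap31 and -1.55 to 0.08 at ms4a17a.16. None of these differences had passed the test. With 44.9% to 67.3% of spots well above background, dim signals limit the smaller differences.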
